A study of Solanum lycopersicum with 30 samples.

Results

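In both vein and intervein tissue of tomato leaf, 150 genes were lower in drought than in watered plants at the first stress time point (T1) and higher in rewatered than in watered plants at the next (T2). They were chosen from 34429 rows with Solyc identifiers, of which 13964 had a mean of at least 5 CPM (a gene's share of its library's reads, times 1000000) over all libraries. For each tissue and time a ratio was taken as the log2 of mean CPM plus 1 in stressed plants over mean CPM plus 1 in watered plants. A ratio of -0.5 or less at T1 and of 0.5 or more at T2, in both tissues, was met by 542 genes, and the 150 with the largest smaller-of-the-pair T2 ratios were kept. The T1 and T2 ratios therefore describe how the genes were chosen. The libraries of the first time point (T0) had no part in the ratios, and the genes are set against them here. They did enter the mean of at least 5 CPM, which 3 of the 150 members reached only with them (Solyc07g064870, Solyc04g072800 and Solyc07g045080).

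The plants were Solanum lycopersicum, grown in pots (300 g of soil, days of 16 h light), and leaf 4 of each plant was cut into a vein-enriched and an intervein part. T0 plants were watered and taken at 25 days after sowing. At T1, 29 days after sowing, watered plants had received 150 mL every other day and drought plants had gone 6 days without water. At T2, recovered plants had been returned to watering after the same drought, and watered plants had never been dried. The growth protocol puts T2 at 3 days after rewatering, while the treatment protocol describes watering on consecutive days, so the age at T2 is not certain. Each of the 10 groups held 3 libraries from separate plants, and no genotype beyond the species is given. T0, T1 and T2 plants differ in age, so age and time point cannot be told apart.

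Water deficit closes stomata and raises abscisic acid in leaves, and many genes of growth, photosynthesis and primary metabolism are known to fall until water returns. On rewatering, expression in most plants returns toward the watered level over hours to days, and some genes pass it for a time. Veins carry xylem and phloem, which bring water in and export sugar, while the tissue between them is mostly photosynthetic mesophyll. In bulk RNA of a dissected tissue, fewer cells of a type and less RNA per cell cannot be told apart.

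The deposited table lists a protein database entry for all 150 genes but no gene name or description, and a lookup among 41476 reference genes (assembly SLM_r2.1) found 0 of the identifiers. The members are named by identifier alone, without a role, and no sequence is shown. The identifiers carry the chromosome. Chromosome 2 held 25 members, or 16.7% of them against 10.5% of the 13964 genes, chromosome 4 held 20 (13.3% against 8.61%), and chromosome 1 held 11 (7.33% against 13.2%). Identifiers are numbered along each chromosome, and 23 members lay in 11 runs of members whose numbers were at most 50 apart. No background over all genes is given for this count, so no clustering is read from it. Neighbours can be near-identical copies, so how reads were divided among the genes of a run is uncertain. Most members were expressed at moderate levels. Their mean CPM over all libraries had a median of 39.3 (27.9 over the 13964 genes) and ran from 5.07 to 3288, with 17 members under 10 CPM and 36 over 100.

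Libraries held 2718799 (intervein T2 watered 1) to 13641845 (intervein T2 watered 2) counts. A tissue score, the mean log2 CPM of 699 genes higher in vein minus that of 852 genes higher in intervein in the T0 libraries alone, checked the labels. It ran from 0.70 to 2.06 in vein and from -4.10 to -2.44 in intervein, apart from 3 libraries. The T0 libraries gave the score its genes and hold the ends at 2.06 and -4.10. The score thus cannot check their labels, only those of T1 and T2. The library labelled vein T2 recovered 2 scored -3.14 and the library labelled intervein T2 recovered 1 scored 0.49. Both were left out of the ratios and of the tests unless stated, though not of the CPM minimum. The third, vein T1 drought 2, scored -0.54 and was kept. The known vein or mesophyll markers could not be looked up without gene names. Rows with ENSRNA identifiers, non-coding RNA models, took 0.76% to 12.2% of the counts, most in intervein T1 drought 1, which also had the fewest genes detected (13740).

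By the choice of genes, the T1 ratio of the 150 members had a median of -1.38 in vein (range -5.40 to -0.54) and -2.22 in intervein (-7.98 to -0.61). The T2 ratio had a median of 2.18 in vein (1.41 to 6.14) and 2.09 in intervein (1.42 to 5.98). The last gene kept, Solyc12g013710, had a smaller T2 ratio of 1.411 and the next, Solyc12g094520, had 1.410. The T1 threshold lay between Solyc10g055760, kept at -0.54, and Solyc02g086650, not kept at -0.497. Of the 1973 genes with a T1 ratio of -0.5 or less in both tissues (14.1% of all genes), 542 or 27.5% had a T2 ratio of 0.5 or more in both and 198 had one of -0.5 or less in both. Among all 13964 genes these T2 ratios were met by 11.0% and 22.4%. The T1 and T2 ratios share no library, and these shares are given as a description.

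Few members passed edgeR's test across all genes in the contrasts that chose them, except in intervein at T1. With edgeR's quasi-likelihood test on 28 libraries and Benjamini-Hochberg adjustment over 19893 rows (called at an adjusted p under 0.05), 5 members were called lower in drought vein at T1, where 0.689% of all genes were, and 40 in drought intervein, where 3.68% were. At T2, 0 members were called higher in recovered vein (0.0% of all genes) and 7 in recovered intervein (0.307%). In vein, 108 members were higher when p was left unadjusted (5.79%, p under 0.05), and DESeq2 called 48 (2.77% in either direction). In the other contrasts DESeq2 called 20 members in drought vein, 88 in drought intervein and 66 in recovered intervein. Its shares over all genes there were 5.97%, 15.5% and 6.51% in either direction. All libraries of the compared groups were nevertheless apart for many members. Every recovered library lay above every watered T2 library for 130 members in vein (14.6% of all genes) and for 130 in intervein (10.9%), and every drought library lay below every watered T1 library for 51 (13.0%) and 76 (9.84%). Nothing is read from these counts, since the same contrasts chose the genes. For refits on other sets of libraries, here and below, no share over all genes is given. Their counts show how the calls move and are not set against a background. The vein T1 count dropped to 1 when drought 1 or drought 2 was left out and to 2 when drought 3, watered 1 or watered 2 was. The intervein T1 count became 24 without drought 1, 9 without drought 3, 15 without watered 2 and 22 without watered 3. At T2 the vein count became 12 without recovered 1. The intervein count became 2 without recovered 2, 3 without recovered 3 or watered 2, and 1 without watered 3.

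Set against T0, the members were high in recovered leaves and about as low in watered T2 leaves as in drought leaves. The median of the 150 members on the log2(CPM + 1) scale was 4.63, 4.60 and 5.90 in vein T0 1, 2 and 3. It was 3.00, 3.87 and 3.03 in vein T1 drought and 3.80, 3.40 and 3.53 in vein T2 watered, so every library of both groups lay below every T0 library. Vein T1 watered 1, 2 and 3 had 5.80, 5.34 and 4.04, which straddle the T0 values. Vein T2 recovered 1 and 3 had 5.40 and 6.32, of which one lay above the T0 libraries and the other inside their range.

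In intervein the T0 medians were 4.99, 3.85 and 4.38. The T1 drought libraries had 2.56, 3.32 and 2.98 and lay below all of T0, while the T2 watered libraries had 4.30, 3.58 and 3.02, the first of them inside the T0 range. Watered intervein at T1 had 5.40, 6.01 and 5.07, all above T0, and recovered intervein 2 and 3 had 5.92 and 6.02, also above it. The members took 0.363% to 0.759% of all counts in the T1 drought libraries of both tissues and 0.433% to 1.02% in the T2 watered libraries. In the 4 recovered libraries used they took 1.51% to 3.42%, against 0.795% to 3.64% at T0. Intervein T0 1 and T1 watered 3 had the largest shares, 3.64% and 4.61%. In these libraries 1 gene, Solyc02g063150, had 13455 and 19166 CPM.

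**Figure D1:**
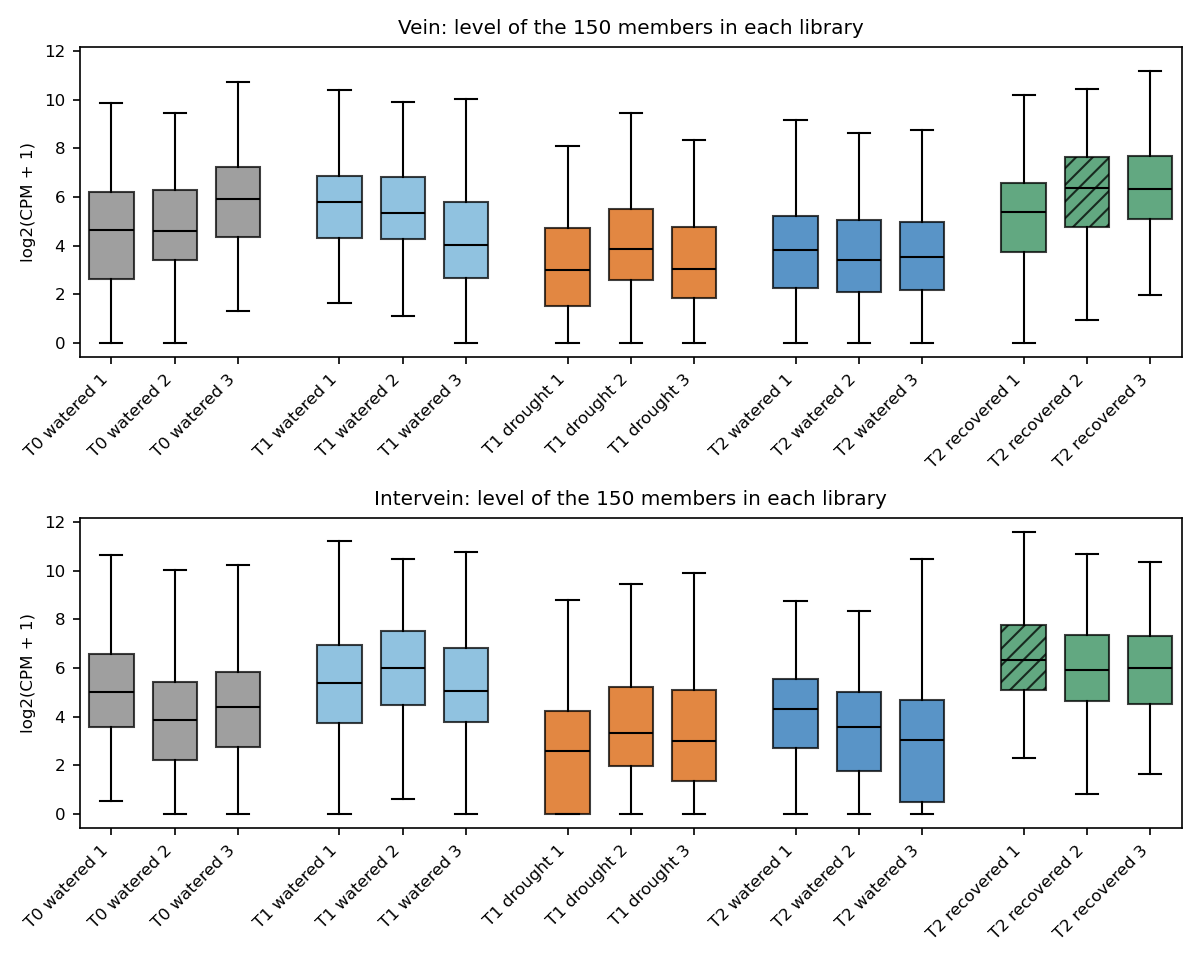
Level of the 150 members in each of the 30 libraries, as log2(CPM + 1), with vein above and intervein below. Boxes span the quartiles over members with the median as a line, whiskers reach the furthest value within 1.5 box heights, and hatched boxes are the 2 libraries left out of the ratios. The T1 drought and T2 watered boxes sit low in both tissues, with medians between 2.56 and 4.30, and the recovered boxes sit high, with medians between 5.40 and 6.38.

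The gap between recovered and watered plants at T2 thus lay on both sides of the T0 level. In vein, the median log2 ratio of the members to T0 was -1.50 in T2 watered and 0.70 in T2 recovered plants, while over the 13964 genes it was 0.23 and 0.03. The mean of T2 watered vein was below T0 for 147 members (34.6% of all genes), and the mean of recovered vein was above it for 122 (53.1%). By at least 2-fold, 113 members were below T0 in watered plants (6.84% of all genes) and 44 above it in recovered plants (5.57%). T2 watered below and T2 recovered above T0 both held for 119 members, or 79.3%, against 16.6% of all genes. This pattern requires recovered above watered leaves at T2, for which the members were chosen and the other genes were not. Its larger share among members, here and in intervein, is thus partly built in. T2 watered lay further below T0 than T2 recovered lay above it for 114 members (37.4% of all genes). The recovered value rests on single libraries, since the median ratio was -0.04 without recovered 3, 1.09 without recovered 1, and 1.15 without T0 replicate 3. Without that T0 library the 114 became 66.

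In intervein the larger median was on the recovered side by column totals, an order that depended on the scaling. The median log2 ratio to T0 was -0.76 in T2 watered and 1.39 in recovered plants (0.30 and -0.05 over all genes). T2 watered intervein was below T0 for 120 members (31.8% of all genes) and recovered intervein was above it for 134 (46.7%), and both held for 104 (12.0%). By at least 2-fold these counts were 60 (5.9%) and 96 (9.06%). Here T2 watered lay further below T0 than T2 recovered lay above it for 57 members, and the reverse held for 93 (41.0% and 58.8% of all genes), shares near those of the members, 38.0% and 62.0%. The T2 watered median was -1.22 without watered 1 and -0.45 without T0 replicate 1. Scaling by trimmed mean of M-values (TMM), which moved the median ratio of all genes by -0.27 in vein and -0.30 in intervein for T2 watered plants, gave member medians of -1.77 and -1.24 there. Relative to the median of all genes, the members stood at -1.72 and -1.06 by column totals and at -1.73 and -1.23 by TMM. For recovered intervein the member median was 1.31 by TMM, so there the sides were nearly equal. In the edgeR fit the median log2 fold change from T0 in intervein was -1.48 in T2 watered and 1.33 in recovered plants. The larger value was then on the watered side.

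Across the tissues, 118 members were below T0 in T2 watered plants of both, against 2426 of the 13964 genes, and 117 were above T0 in recovered plants of both, against 4309. The T2 libraries entered the ratios that chose the members and the T0 libraries entered the CPM minimum alone, so the T2 side of each of these comparisons had a part in the choice. Over the 147 members that reach the minimum without T0, the medians were -1.48 and 0.71 in vein and -0.76 and 1.43 in intervein. The 392 genes that met the thresholds but were not kept had medians of -0.68 and 0.41 in vein and of -0.45 and 0.64 in intervein, on the same sides of T0 and nearer to it. They were cut for their smaller T2 ratios, so a narrower gap between their T2 groups was built in. In the group means, an overshoot past the T0 level was not seen for every member. Recovered leaves were at or below T0, with T2 watered leaves below it too, for 28 members in vein and 16 in intervein. The vein share, 18.7%, was near the 18.0% of all genes, and the intervein share was 10.7% against 19.8%.

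**Figure D2:**
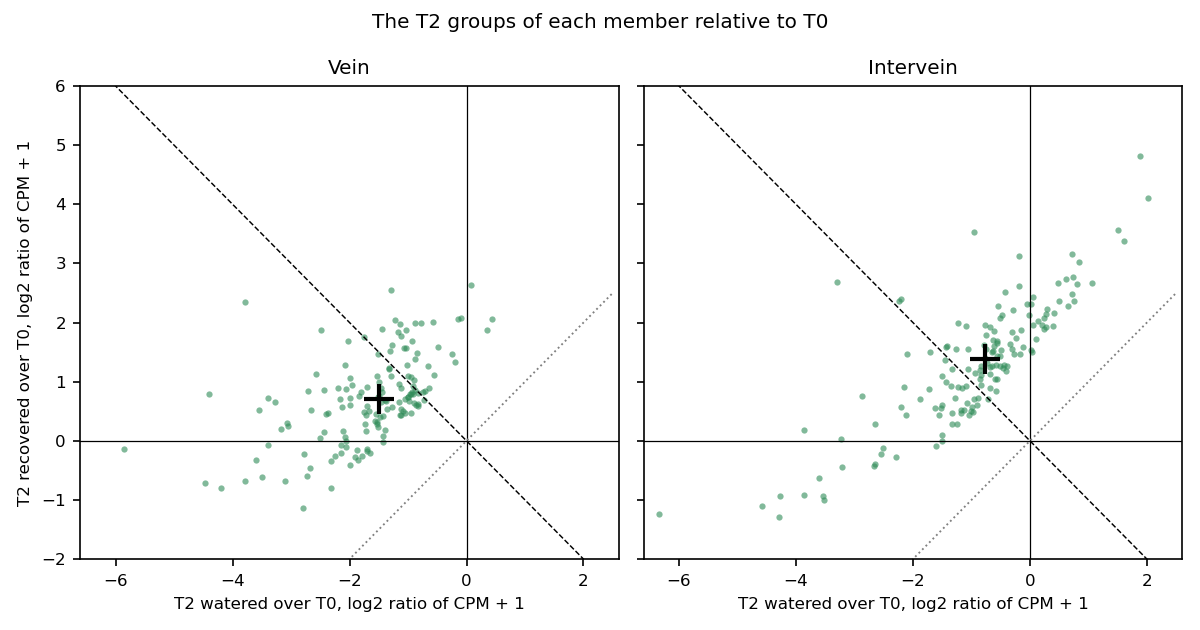
Each point is 1 of the 150 members, placed by the log2 ratio of mean CPM + 1 in T2 watered over T0 plants (horizontal) and in T2 recovered over T0 plants (vertical), in vein and intervein. The cross is the median over members, the dashed line marks equal distance from T0 on both sides, and the dotted line marks equal T2 levels. Most points lie at the upper left, 119 in vein and 104 in intervein, with 114 vein and 57 intervein points below the dashed line.

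Member by member, edgeR called none of these differences from T0. The T2 side of the calls and counts in this paragraph had a part in the choice of members. Larger shares among members than over all genes are thus partly built in. For T2 watered against T0, 0 members were called lower in vein (0.0% of all genes) and 0 in intervein (0.0503%), with 79 and 57 lower at an unadjusted p under 0.05 (5.81% and 9.62% of all genes) and 24 and 28 by DESeq2 (2.27% and 4.48% of all genes in either direction, as for each DESeq2 share given here). For T2 recovered against T0, 0 were called higher in vein (0.0%) and 0 in intervein (0.00503%), with 5 and 32 at an unadjusted p under 0.05 (1.59% and 3.84%) and 0 and 5 by DESeq2 (0.349% and 2.82%). Without intervein T0 replicate 3, 11 members were called lower in T2 watered intervein, a count with no share over all genes beside it. Every T2 watered library lay below every T0 library for 64 members in vein (6.27% of all genes) and 36 in intervein (3.79%). Both recovered libraries lay above every T0 library for 27 members in vein (9.77%) and 81 in intervein (12.2%).

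At T1 the members' medians in drought were below T0 in both tissues, while watered leaves were above T0 in intervein and near it in vein. The median log2 ratio to T0 in drought plants was -1.53 in vein and -0.95 in intervein (0.07 and 0.19 over all genes). By TMM it was -1.24 in intervein, where TMM moved the median of all genes by -0.20. In vein and intervein, 146 and 132 members lay below T0 (44.8% and 38.4% of all genes). In both tissues at once 128 members did, against 3534 of the 13964 genes. The members were required to be low in these drought libraries against watered T1 leaves, so the drought side of these counts and of the calls that follow was part of the choice. By at least 2-fold, 109 were below T0 in vein (9.41%) and 73 in intervein (8.62%), and every drought library lay below every T0 library for 49 (9.29%) and 40 (6.52%). Against T0, edgeR called 3 members lower in drought vein (0.488% of all genes) and 6 in drought intervein (0.588%), with 52 and 59 at an unadjusted p under 0.05 (6.59% and 10.4%) and 24 and 37 by DESeq2 (4.81% and 7.3%). The vein count was 5 and 1 without T0 replicates 2 and 3, and 0 without drought 1 or 2. The intervein count was 0, 2 and 18 without T0 replicates 1, 2 and 3, and 2 and 0 without drought 2 and 3.

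Watered intervein at T1 stood above T0, with a median log2 ratio of 1.07 and 139 members above (56.1% of all genes), 79 of them by at least 2-fold (7.44%). The T1 watered libraries were the reference of the T1 ratio, so genes high in them were favoured by the choice. The counts of watered T1 leaves against T0 are therefore a description. Every watered library lay above every T0 library for 22 members (4.05%). In watered vein the median was -0.09, with 62 members above (57.7%). The vein median was 0.19 without watered 3 and 0.36 without T0 replicate 3. Neither change was called for any member by edgeR (0 of 150 in each tissue, 0.0% of all genes), with 16 higher in intervein and 1 in vein at an unadjusted p under 0.05 (2.59% and 0.809%) and 1 and 0 by DESeq2 (0.111% and 0.034%). The difference between the tissues in this change was also not called for any member, with 0 towards vein and 6 towards intervein at an unadjusted p under 0.05 (0.88% and 1.07% of all genes) and 0 by DESeq2 (0.068%). The T1 drought ratio of intervein, which chose the genes, was thus taken against watered leaves that lay above T0. For the T1 drought, T2 watered and T2 recovered changes from T0, the difference between tissues was called for 0 members by edgeR, as for 0.0% of all genes. At an unadjusted p under 0.05 the drought change differed for 6 members towards vein and 3 towards intervein (3.46% and 1.99%), the T2 watered change for 2 and 5 (3.48% and 2.46%) and the recovered change for 0 and 1 (2.99% and 1.63%). DESeq2 called 0, 1 and 0 members for these changes (0.216%, 0.271% and 0.237%).

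The recovered libraries left out of the ratios entered the rule through the CPM minimum alone, which 1 member, Solyc07g045080, reached only with them. Their member medians on the log2(CPM + 1) scale were 6.38 (labelled vein T2 recovered 2) and 6.34 (labelled intervein T2 recovered 1), the highest values of all 30 libraries. In the first, 66 of 150 members lay above all 6 T0 libraries of both tissues (11.0% of all genes) and 4 lay below all of them (18.5%). In the second these counts were 82 (15.7%) and 2 (5.26%). Since their tissue scores did not go with their labels, they were also set against each tissue alone. Above the vein T0 libraries the first had 85 members (23.4% of all genes) and the second 95 (29.7%), and above the intervein T0 libraries they had 105 (20.7%) and 115 (38.3%). These are single libraries, with no test, and T0 plants were younger.

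The other T2 libraries differed on the same measure. Vein T2 recovered 3 had 93 members above all 6 T0 libraries (14.5% of all genes), intervein T2 recovered 2 and 3 had 57 and 61 (9.67% and 11.8%), and vein T2 recovered 1 had 24 (19.2%). In the 6 watered T2 libraries 0 to 5 members lay above all T0 libraries (15.6% to 26.8% of all genes) and 38 to 82 lay below all of them. For all genes the shares below ran from 4.18% to 7.87% in 5 of those libraries and reached 20.1% in intervein T2 watered 3, which also had the 82 members.

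**Figure D3:**
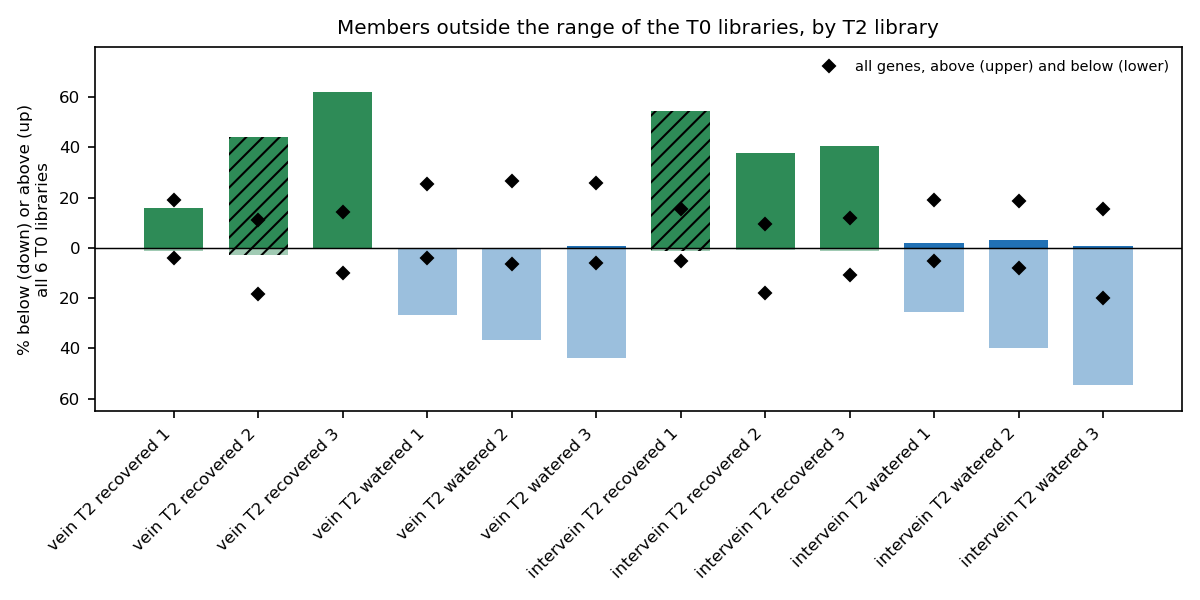
Percentage of the 150 members above (upward bars) and below (downward, paler bars) all 6 T0 libraries, for each of the 12 T2 libraries. Green bars are recovered and blue bars watered plants, hatched bars are the 2 libraries left out of the ratios, and diamonds give the same percentages over the 13964 genes. Recovered libraries rise well above their diamonds except vein T2 recovered 1, and every watered library reaches below its diamond.

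The T0 libraries also show how the members vary among unstressed plants. The standard deviation of log2(CPM + 1) among the 3 vein T0 libraries had a median of 1.09 over members and 0.46 over all genes, and 136 members were over the median of all genes. In intervein these medians were 0.83 and 0.62, with 105 members over that of all genes. In some groups a single library was the highest or the lowest for most members, while other libraries split them. Intervein T0 3 was the highest for 44 members (73.8% of all genes) and the lowest for 44 (12.6%). Intervein T1 watered 3 was the highest for 54 (22.7%) and the lowest for 83 (64.1%). Vein T0 3 was the highest of its group for 109 members (27.4% of all genes) and intervein T0 1 for 95 (15.9%). Among the watered vein libraries of T1, replicate 3 was the lowest for 119 members (44.6%). In vein T1 drought, replicate 2, the library whose tissue score lay between the tissues, was the highest for 103 members (34.4%), and its part in their level was not tested.

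Vein and intervein were compared in the T0 plants, whose libraries entered the choice through the CPM minimum alone. Of the 150, edgeR called 5 higher in vein (4.17% of all genes) and 2 higher in intervein (6.16%), 21 and 17 passed an unadjusted p under 0.05 (11.3% and 11.9% of all genes), and DESeq2 called 15 and 12 (18.0% of all genes). Both parts came from leaf 4 of each plant, but the replicate numbers are not shown to pair vein and intervein libraries. With same-numbered libraries of a group taken as 1 plant and used as a block, the counts were 2 and 0. Among the 147 members that reach the CPM minimum without T0 the counts were 4 and 2. The median log2 fold change of vein over intervein was 0.20, against 0.06 over all rows tested. The count higher in vein was 2 without vein T0 3 and 1 and 3 without intervein T0 2 and 3. The count higher in intervein was 0 without vein T0 1 or intervein T0 1 or 2, 1 without vein T0 2 or 3, and 11 without intervein T0 3.

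Solyc02g086300 had the largest difference towards vein. It was at 89.0, 57.9 and 204 CPM in vein T0 1, 2 and 3 and at 1.15, 0 and 3.10 CPM in intervein, with no overlap (log2 fold change 6.18, SE 1.204, edgeR adjusted p = 0.00253). In vein it was at 12.2, 7.18 and 8.28 CPM in drought, stood at 35.4, 54.4 and 31.1 CPM in watered plants at T2, and had 194 and 200 CPM in recovered 1 and 3, close to the highest T0 library. In intervein drought it had 0 counts in all 3 libraries, and recovered 2 and 3 had 8.81 and 2.86 CPM. Watered intervein was also low, at 3.26, 1.54 and 0 CPM at T1 and at 2.94, 1.47 and 0 CPM at T2. There the recovered and watered T2 libraries overlapped. Of the left-out libraries, the one labelled vein had 11.2 CPM and the one labelled intervein 227 CPM, so each lay near the other tissue. Solyc07g064870 was at 24.7, 3.24 and 50.9 CPM in vein T0 and at 0.43 to 0.67 CPM in intervein T0. It had a mean of 5.82 CPM over all libraries and 3.93 CPM without T0, so it passed the CPM minimum through these values, which are given with no test.

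Towards intervein stood Solyc02g063150, also the most abundant member by reads. It was at 753, 536 and 1677 CPM in vein T0 1, 2 and 3 and at 13455, 7319 and 1197 CPM in intervein, where replicate 3 lay inside the vein range (log2 fold change -3.55, SE 1.01, adjusted p = 0.0268 by edgeR). Its intervein level was 308 to 1522 CPM in drought, 1411 to 4252 CPM in watered T2 plants, and 11283 and 4340 CPM in recovered 2 and 3, which lie within the T0 range. Solyc12g011280 was at 42.7 to 121 CPM in vein T0 and at 909, 588 and 85.4 CPM in intervein T0 1, 2 and 3 (log2 fold change -3.34, SE 1.07, adjusted p = 0.0497 by edgeR). The first of these calls was lost without vein T0 1 or 2 or intervein T0 1 or 2 (adjusted p 0.0516 to 0.128) and the second without any 1 T0 library except intervein T0 3 (0.0894 to 0.179). With same-numbered libraries taken as 1 plant and used as a block, neither was called (adjusted p 0.165 and 0.217 by edgeR).

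The members with the largest T2 ratios were low in watered leaves at T2 and variable at T0. Solyc02g088240 was at 0, 3.85 and 3.52 CPM in vein T2 watered and at 46.0 and 439 CPM in recovered 1 and 3. Its vein T0 libraries had 17.5, 7.72 and 115 CPM, whose range holds the first recovered value and ends below the other. In intervein it had 0, 0 and 1.76 CPM in T2 watered, 46.8 and 21.9 CPM in recovered 2 and 3, and 6.19, 0 and 0 CPM at T0, so both recovered libraries lay above T0. In intervein drought it had 0 counts in all 3 libraries. The left-out libraries, labelled vein and intervein, had 87.1 and 246 CPM.

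Solyc02g079520 was at 3.68, 3.74 and 4.89 CPM in vein T2 watered and at 64.4 and 67.6 CPM in recovered 1 and 3. Its vein T0 libraries had 5.16, 17.1 and 37.3 CPM and its T1 watered libraries 9.91, 6.15 and 7.81 CPM, so recovered vein lay above every watered vein library of any time. In intervein the recovered libraries 2 and 3 had 30.9 and 113 CPM and the T2 watered libraries 5.15, 0.51 and 0.38 CPM, with 34.7, 3.33 and 1.49 CPM at T0. There the lower recovered library lay inside the T0 range. The left-out libraries had 107 and 74.0 CPM. Against T0, the edgeR log2 fold change of recovered vein was 1.62 (SE 1.39, adjusted p = 1) for Solyc02g079520 and 2.37 (SE 1.65, adjusted p = 1) for Solyc02g088240.

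The next pair was picked for the lowest T1 ratios, so its drought values are a description. Solyc04g014510 was at 3.57, 4.50 and 24.1 CPM in drought vein and at 381, 625 and 477 CPM in watered vein at T1, with 301, 70.4 and 646 CPM at T0. Every drought library of either tissue lay below every T0 library of that tissue. Recovered vein 1 and 3 had 545 and 255 CPM, inside the T0 range, and the watered T2 libraries had 210, 103 and 40.7 CPM, of which only the last lay below T0. In intervein, drought libraries had 9.08, 3.03 and 2.04 CPM, recovered 2 and 3 had 56.3 and 91.9 CPM, and T0 had 124, 44.6 and 54.3 CPM.

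Solyc12g010980 was at 1.19, 2.30 and 0 CPM in drought vein and at 65.0, 91.3 and 5.83 CPM in watered vein at T1. At T0 it had 29.8, 0 and 17.4 CPM, which overlap the drought libraries. Recovered vein 1 and 3 had 9.28 and 41.4 CPM and watered vein at T2 had 4.90, 0.33 and 9.98 CPM, and these groups overlap. In intervein the groups were apart, with 2.08, 2.90 and 1.07 CPM in drought below 31.1, 6.66 and 10.9 CPM at T0, and 36.3 and 11.3 CPM in recovered 2 and 3 above 11.0, 5.50 and 3.39 CPM in watered T2 plants.

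Solyc03g115900, the other of the most abundant members by reads, shows the gap on the low side alone. In vein it was at 116, 111 and 168 CPM in watered T2 plants, 440 and 316 CPM in recovered 1 and 3, and 388, 675 and 915 CPM at T0. Its watered T2 libraries thus lay below every T0 library, and the recovered libraries lay below or inside the T0 range. In intervein it was at 93.8, 238 and 174 CPM in watered T2 plants, 1661 and 1048 CPM in recovered 2 and 3, and 4626, 4988 and 309 CPM at T0. The log2 fold change of T2 watered intervein against T0 was -5.01 (SE 1.24, adjusted p = 0.106 by edgeR).

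**Figure D4:**
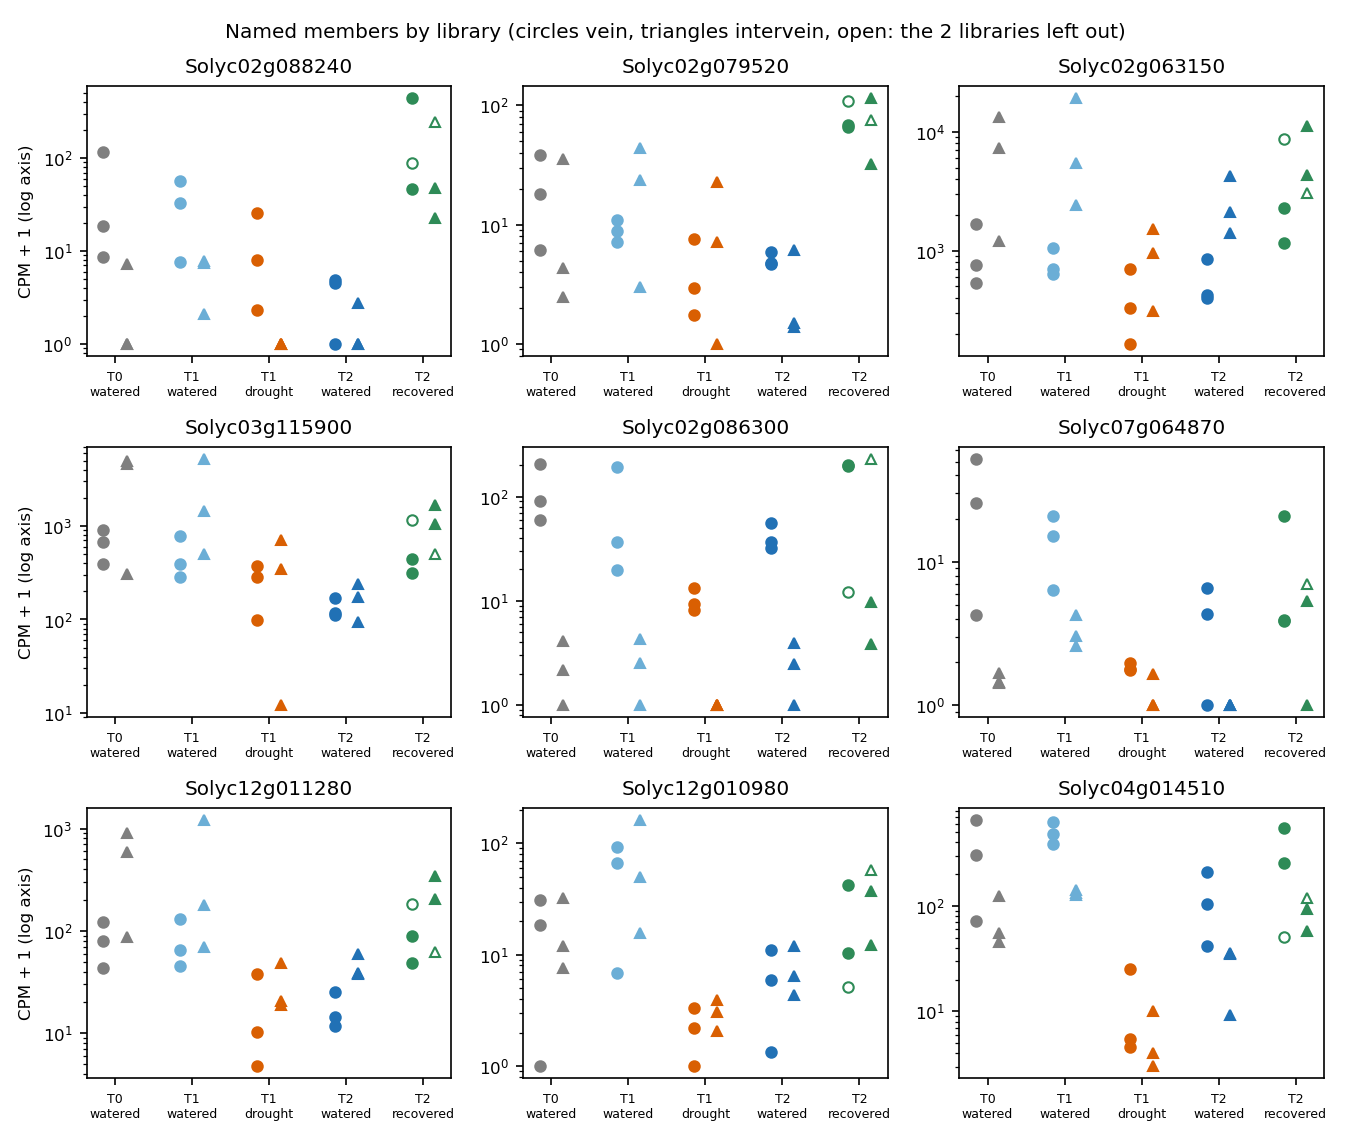
CPM + 1 on a log axis for the 9 named members in every library, with circles for vein and triangles for intervein, and open symbols for the 2 libraries left out of the ratios. For Solyc02g079520 the recovered vein libraries, at 64.4 and 67.6 CPM, lie above all other vein groups, while for Solyc03g115900 the recovered vein libraries, at 440 and 316 CPM, do not exceed the highest T0 library, at 915 CPM.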

How the data were processed

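RNA of 30 libraries was measured by stranded mRNA sequencing with single reads of 75 nt, per the labels' protocols. The submitters' processing notes name HISAT2 2.1.0 and StringTie 1.3.3b, with DESeq2 1.20.0 and FastQC 0.11.5. The authors deposited, per the file headers, a gene count matrix from KBase with whole-number counts per gene and library, without normalization. Neither genome build nor multi-mapping rule is given in the sources used here. The authors' own drought statistics were not used here.

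CPM used column totals over 35596 rows, of which 1167 carried ENSRNA identifiers. The test was edgeR 4.0.16 in R 4.3.3 (filterByExpr, TMM, glmQLFit and glmQLFTest; two-sided). Each group had 1 coefficient, leaving 18 residual degrees of freedom. All 150 members passed the filter of low counts, which kept 19893 rows. DESeq2 1.42.0 was an alternative. The step was run on simulated data with the same spread for every gene and changes planted in vein T0 alone. That setting does not show how the test performs for members that vary more than most genes at T0. Standard errors were the log2 fold change over the square root of the F statistic.

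The members and lists were chosen with earlier results of these data known. Lists of pathways written as patterns on gene descriptions held 0 genes, since the files give none. Named genes were the 2 with the largest smaller T2 ratio, the 2 of highest mean CPM, the 2 called furthest towards each tissue at T0, the 2 with the lowest larger T1 ratio, and 1 on each side of each threshold. The differences between tissues, and the count comparing both T2 groups with T0, were added after seeing the data. Where leaving out a recovered library leaves 1 in its group, that library is assumed to vary like the other groups.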

Additional observations from a re-analysis of the deposited data

How the results depend on the processing

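The 542 genes that met the thresholds became 156 with ratio thresholds of 1, and 464 to 649 when any 1 library was left out, with 104 to 149 of the 150 members kept. With all 30 libraries 585 genes met them, with 120 of the members kept, and without both T1 drought libraries that stand apart it was 608, an alternative added after seeing the data. The count of members higher in vein at T0, 5, was 8 in the 6 T0 libraries alone, 2 with same-numbered libraries taken as 1 plant, 15 by DESeq2 and 1 to 7 with a library left out. The count higher in intervein, 2, was 1 with all 30 libraries, with DESeq2's size factors in edgeR and with no filter on low counts, 0 in the T0 libraries alone and with same-numbered libraries taken as 1 plant, 12 by DESeq2 and 0 to 11 with a library left out. For T1 drought below T0, vein (3) had 0 in the compared groups alone, 24 by DESeq2 and 0 to 5 with a library left out, and intervein (6) had 3 with a replicate block, 0, 37 and 0 to 18. For T2 watered below T0, DESeq2 called 24 in vein and 28 in intervein, and intervein ran from 0 to 11 with a library left out. DESeq2 called 1 member higher in T1 watered intervein, 5 in T2 recovered intervein and 1 for the tissue difference in the T2 watered change. In the contrasts that chose the genes, DESeq2 called 20 and 88 lower at T1 and 48 and 66 higher at T2 in vein and intervein. In either direction it called 5.97% and 15.5% of all genes at T1 and 2.77% and 6.51% at T2. With all 30 libraries the T2 counts were 34 and 14, with the compared groups alone both intervein counts were 0, and with a library left out the counts ran from 1 to 4, 9 to 35, 0 to 12 and 1 to 5. The replicate block changed no other count by over 1.5 times. Same-numbered vein and intervein libraries of T0 correlated at -0.17, 0.15 and -0.13 in their deviations from the group means, so the numbers are not shown to pair libraries. The vein T2 watered median of -1.50 was -1.77 by TMM, -1.25 with a pseudocount of 5 and -1.67 to -1.02 with a library left out. The intervein T1 drought median was -0.61 with a pseudocount of 5. The intervein recovered median of 1.39 was 1.31 by TMM, 1.17 with a pseudocount of 5, 1.61 with all 30 libraries and 1.15 to 1.65 with a library left out. The 114 vein members with T2 watered further from T0 ran from 66 to 136. The library labelled vein T2 recovered 2 had 105 members above the intervein T0 libraries. The causes were not tested.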
